A study of Cavia porcellus with 238 samples.

Results

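The aquaporin genes AQP1, AQP2, AQP3, AQP4, AQP5, AQP6, AQP7, AQP8, AQP9 and AQP11 were described across the tissues of the guinea pig (GP, Cavia porcellus). They are 10 of the 16009 genes in the count table, and all 10 listed symbols were present. The genes were chosen by symbol after their levels in the tissues, and the adrenal sex difference of AQP3 in non-breeders, had been seen in these same counts. Tissue levels and that difference are therefore given as descriptions, without a test. The choice named the adrenal AQP3 difference without a breeding status, so the breeder difference, tested below, may not be independent of it.

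RNA-seq libraries came from 24 adult GPs of the Dunkin Hartley strain HsdDhl:DH, 6 in each of 4 groups: female breeders (BF), female non-breeders (NF), male breeders (BM) and male non-breeders (NM). Breeders had lived in pairs of opposite sex, whereas non-breeders had lived in pairs of the same sex. Sampling was scheduled after lactation of the second litter, and male partners had been removed from the females around the birth of that litter. Animals were 0.95 to 0.97 years old, apart from 4 males of 0.74 years (BM 20, BM 22, NM 18 and NM 19). The tissues were adrenal gland (Adr), cerebellum (Cer), heart (Hrt), hypothalamus (Hyp), kidney (Kid), liver (Lvr), pituitary (Pit), skin (Skn), thyroid (Thy) and, by sex, ovary (Ova) or testis (Tes). Within a tissue each library came from a different animal, so the errors below are between animals.

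Aquaporins are channels in cell membranes. AQP1, AQP2, AQP4, AQP5, AQP6 and AQP8 pass mainly water or small solutes and ions, while the aquaglyceroporins AQP3, AQP7 and AQP9 also pass glycerol, and AQP11 is an unorthodox family member of intracellular membranes. In the mammalian kidney AQP1 sits in the proximal tubule and the thin descending limb, vasopressin moves AQP2 to the luminal membrane of collecting duct principal cells, and AQP3 lets the water leave on the opposite side of those cells. Elsewhere AQP4 is the water channel of astrocytes, AQP7 is known for the release of glycerol from fat cells and AQP9 for its uptake by hepatocytes.

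Levels are given as CPM, the reads of a gene scaled by all counted reads of the library. CPM was not divided by gene length, so levels are compared between tissues and animals for the same gene only. Totals ranged between 3551108 reads (Kid of NF 08) and 22277626 reads (Adr of BF 12) over the libraries used. The thyroid library of NM 19 was left out, because its 5 thyroid follicular cell markers summed to 65.4 CPM, against 37757 to 126771 CPM in the 22 other thyroids. In Kid the markers of thick limb and distal tubule summed to a median of 34600 CPM, and in Adr those of adrenal cortex to 70101 CPM. In tissue RNA, fewer cells of a type and less RNA per cell cannot be told apart.

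Among the water channels, AQP1 had its highest mean in Kid, at 1328 ± 536 CPM (SD, n = 24). Hrt (478 ± 145 CPM) and Skn (422 ± 232 CPM) followed, then Thy (111 ± 72.5 CPM), Lvr (80.4 ± 26.5 CPM) and Adr (65.0 ± 32.2 CPM). Each tissue's range over animals overlapped that of its neighbour in this order. Kid held 52.2% of the sum of the 11 tissue means. The lowest means were 4.13 CPM in Cer, 1.35 CPM in Hyp and 0.757 CPM in Tes.

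The low Cer mean of AQP1 came from few animals. The highest values were 22.02 CPM in NF 08, 16.9 CPM in NF 09, 16.4 CPM in BF 15 and 12.2 CPM in BM 16, and the group medians were 1.56 CPM in BF, 1.91 CPM in NF, 1.27 CPM in BM and 1.30 CPM in NM. The same 4 libraries, in the same order, had the highest counts of TTR (transthyretin, a product of choroid plexus and liver), between 3618 CPM in NF 08 and 1597 CPM in BM 16, against a median of 6.13 CPM over the 24 Cer libraries. The other 4 hepatocyte markers together stayed at or below 2.49 CPM in every Cer library. TTR was looked up after these values had been seen, and its part in the AQP1 level was not tested.

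AQP2 was found almost entirely in Kid, with 1191 ± 512 CPM (range 545 to 2329 CPM) and 99.9% of the sum of tissue means. No library of any other tissue exceeded 1.27 CPM, and the next highest mean was 0.226 CPM in Adr. AQP6, a channel of intracellular vesicles in intercalated cells in rat, had a similar pattern, with 69.7 ± 19.6 CPM in Kid, 99.3% of the sum, and at most 0.315 CPM as the mean of another tissue. Across the 11 tissue means of log2(CPM + 1) the correlation of AQP2 with AQP6 was 0.997, which rests on the single tissue that carries both.

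AQP4 was the aquaporin of the brain samples. Its means were 1584 ± 245 CPM in Hyp and 877 ± 177 CPM in Cer (SD, n = 24 each), and their ranges overlapped. Pit (88.0 ± 20.96 CPM, n = 23) lay below Cer without overlap, and Hrt had 69.3 ± 32.1 CPM. In Kid AQP4 was close to absent, with 27 reads in all 24 libraries together, no read in 9 of them and at most 0.192 CPM.

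AQP4 in Adr was low but uneven, and the markers of adrenal medulla moved with it. AQP4 reached 12.4 CPM in NF 13 and 11.9 CPM in NM 28, and these had the highest sums of the 5 medulla markers (CHGA, CHGB, DBH, TH and PNMT), 16974 and 16706 CPM. The median sum over the 24 Adr libraries was 1380 CPM and the lowest 62.9 CPM. The share of medulla in each piece of gland was not measured, and its part in AQP4 was not tested.

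AQP5, a channel of gland and lung epithelium in mammals, was highest in Tes, with 1284 ± 77.4 CPM (SD, n = 12) and no overlap with another tissue. It was followed by Lvr (267 ± 60.5 CPM), Adr (63.1 ± 39.5 CPM) and Skn (10.8 ± 4.97 CPM), whose ranges overlapped one by one. In Kid it had 1.91 ± 0.938 CPM. The sum of 5 airway and gland epithelium markers had a median of 2.31 CPM in Adr and 0.990 CPM in Lvr, so those markers were near 0 where AQP5 was counted.

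AQP8 was a testis gene in this collection, with 98.4 ± 11.4 CPM in Tes, 97.7% of the sum of tissue means. Kid, with 1.70 ± 0.898 CPM, was the only other tissue whose mean reached 1 CPM. In Lvr, where AQP8 is known from rat hepatocytes, the mean was 0.00754 CPM and the highest library had 0.0714 CPM.

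The aquaglyceroporins each had their own tissues. AQP3 was highest in Skn, with 454 ± 364 CPM, then in Kid (267 ± 193 CPM), Thy (66.6 ± 37.5 CPM) and Adr (38.9 ± 44.2 CPM), and each range overlapped that of the next tissue. Its spread between animals was wide in Skn, between 67.7 CPM and 1809 CPM in BM 22, and the sum of 6 keratinocyte markers ranged between 5068 and 30988 CPM over the same libraries. In Lvr, Hyp, Tes, Cer and Hrt its mean was below 1 CPM.

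AQP7 was highest in Tes, with 532 ± 77.4 CPM, followed by Skn (215 ± 116 CPM), Thy (125 ± 106 CPM), Hrt (20.7 ± 19.9 CPM) and Kid (15.2 ± 7.39 CPM). Tes did not overlap Skn, whereas the later neighbours overlapped. The highest Thy value, 534 CPM in NM 29, was in the library with the highest sum of 6 adipocyte markers among thyroids, 4304 CPM against a median of 1364 CPM. In Adr the 4 libraries highest in AQP7 (NM 30 with 26.1 CPM, BF 14 with 23.5 CPM, BM 16 with 17.7 CPM and BF 02 with 10.4 CPM) were also the 4 highest in these markers. In Hrt the library highest in AQP7, NM 29 with 65.0 CPM, ranked at place 8 of 24 for the markers, whose sum lay between 2148 and 3574 CPM there. In Skn the sum lay between 1616 and 13987 CPM. Over the 24 libraries, on the log2 scale, AQP7 and the sum had r = 0.85 in Skn and -0.19 in Hrt. The part of fat tissue in these levels was not tested.

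AQP9 was confined to Lvr and Skn among the tissues sampled, with 239 ± 66.3 CPM in Lvr and 61.5 ± 44.5 CPM in Skn, and every other tissue mean was at or below 0.253 CPM. In Hrt no read was counted in any of the 24 libraries, where 3 reads correspond to between 0.175 and 0.442 CPM per library. The Skn values ran between 9.54 CPM in NF 11 and 159 CPM in NF 03. NF 03 also had the highest keratinocyte sum, 30988 CPM. The libraries next highest in AQP9, BF 01, BM 16 and BF 14 (117 CPM), ranked at places 6, 4 and 15 for that sum. Over the 24 Skn libraries, on the log2 scale, AQP9 and the sum had r = 0.66. The part of keratinocytes in AQP9 was not tested.

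AQP11 was the only member with a mean of at least 1 CPM in all 11 tissues. It was highest in Tes, at 147 ± 21.03 CPM without overlap, and then came Cer (47.5 ± 4.36 CPM), Lvr (46.5 ± 13.3 CPM), Hyp (37.0 ± 3.97 CPM), Pit (22.5 ± 2.93 CPM) and Kid (22.1 ± 4.31 CPM). The lowest means were 4.70 CPM in Adr and 4.68 CPM in Hrt, which did not differ beyond their spread. Apart from Tes, only Hyp and Pit were neighbours without overlap.

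**Figure D1:**
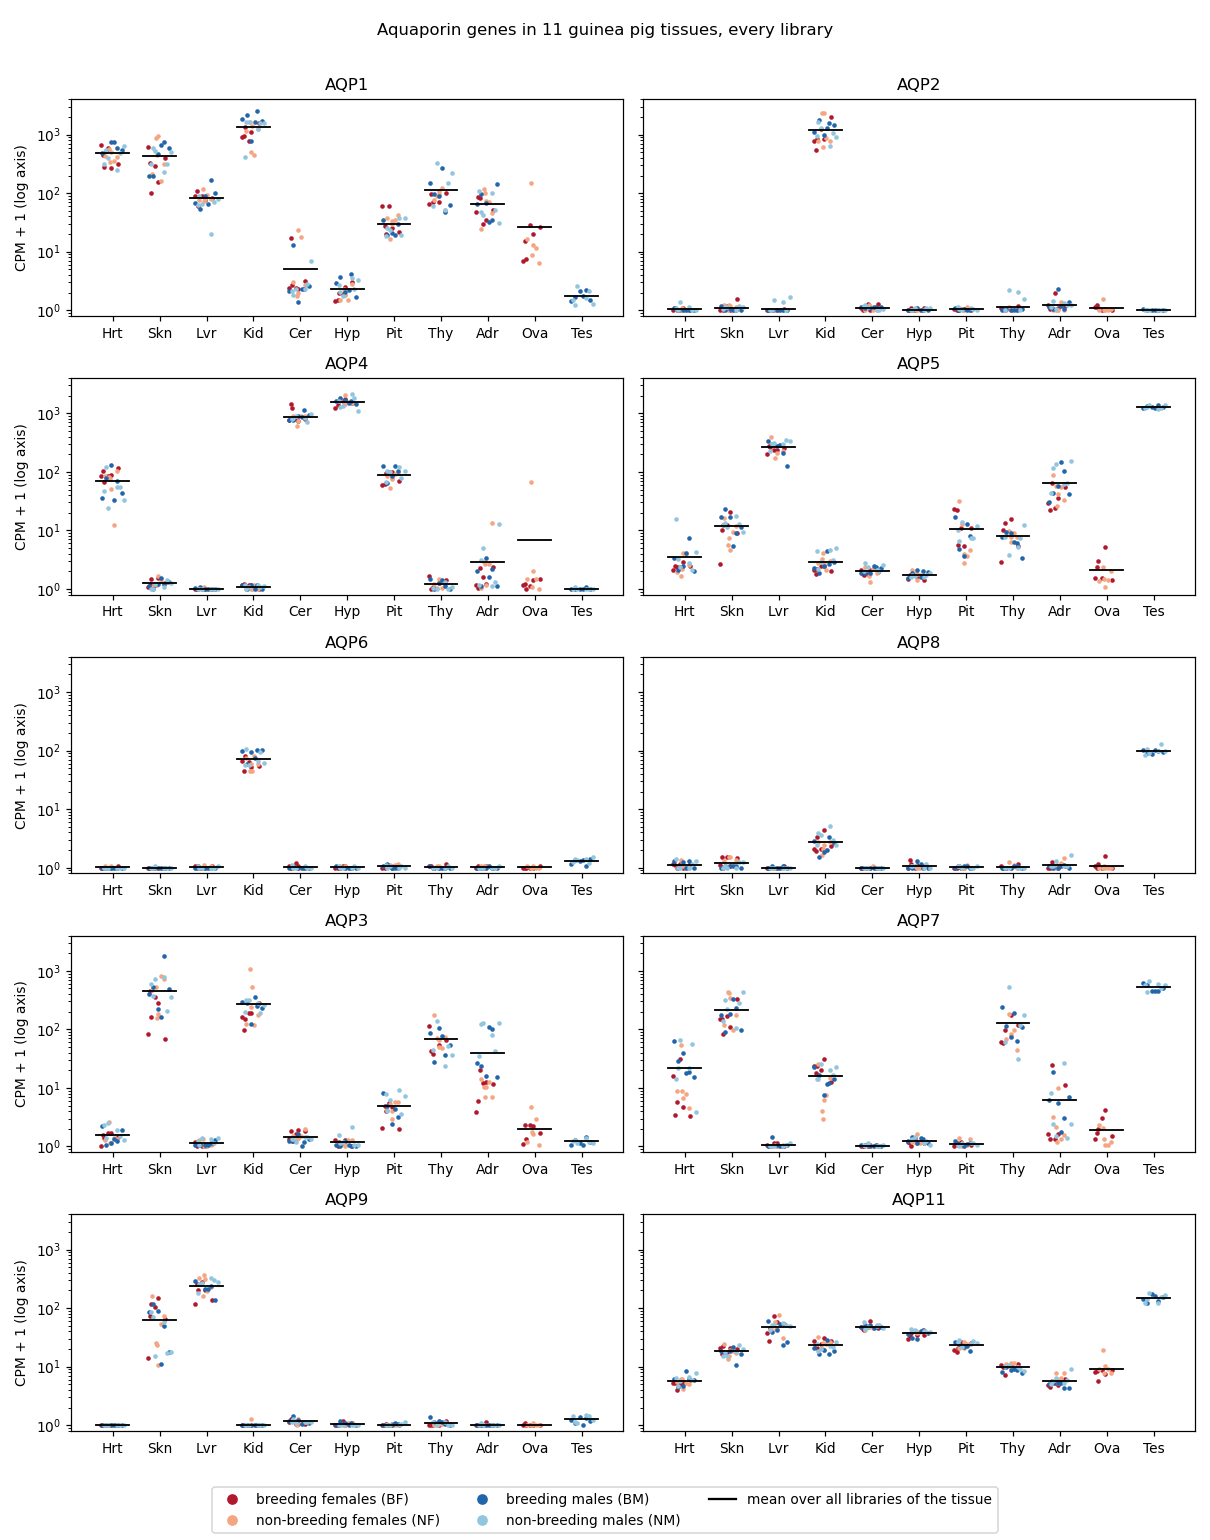
Level of each aquaporin gene by tissue, as CPM + 1 on a log axis; every point is the library of an animal, coloured by group, and the black line is the mean over the tissue. AQP2 and AQP6 stand out in kidney alone (1191 and 69.7 CPM), AQP8 in testis (98.4 CPM), AQP4 in hypothalamus and cerebellum (1584 and 877 CPM) and AQP9 in liver and skin (239 and 61.5 CPM).

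The genes whose tissue pattern was most like that of each aquaporin were taken from 15526 genes with a mean of at least 1 CPM in some tissue, by Pearson correlation (r) over the 11 tissue means of log2(CPM + 1). For AQP1 these were TINAGL1 (r = 0.957), IL15 (r = 0.955) and ZFP36 (r = 0.924). For AQP2 they were the thick limb potassium channel gene KCNJ1, UGT1A10 and CLRN3 (r = 1.00 each, rounded), and for AQP6 they were TMEM174, LRIT3 and AADAT (r = 0.999 each). LSAMP (r = 0.978), the glutamate receptor gene GRIA4 (r = 0.966) and C15orf59 (r = 0.961) were closest to AQP4. These values describe 11 points and carry no test. By rank (Spearman's rho) they were 0.92 to 0.96 for AQP1 and 0.82 to 0.91 for AQP4. They were 0.39 to 0.65 for AQP2 and 0.23 to 0.54 for AQP6.

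AQP5 was closest to EPSTI1 (r = 0.916), ZBP1 (r = 0.909) and MTFR1 (r = 0.907), and AQP8 to C5orf58 (r = 0.998), MROH9 and GDPD4 (r = 0.997 each). For AQP3 the cystatin gene CST6 (r = 0.921) and GPR65 (r = 0.909) were among the closest. AQP7 was closest to CCL14 (r = 0.924), EMC8 (r = 0.913) and RAB38 (r = 0.905). AQP9 was closest to the histidine ammonia-lyase gene HAL (r = 0.984), the interleukin 1 receptor antagonist gene IL1RN (r = 0.974) and the arginase gene ARG1 (r = 0.932). AQP11 was closest to ZSCAN20 (r = 0.920), PAPD5 and LIN7A (r = 0.900 each). By rank the values were 0.86 to 0.91 for AQP11, 0.87 to 0.90 for AQP7 and 0.75 to 0.77 for the genes named for AQP3. They were 0.50 to 0.81 for AQP5, 0.30 to 0.81 for AQP8 and 0.11 to 0.48 for AQP9.

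The groups were then compared within each tissue with edgeR's quasi-likelihood test on the counts of all genes, with a false discovery rate (FDR) below 0.01 as the threshold for a differentially expressed gene (DEG). Of the 90 pairs of an aquaporin and a tissue that both sexes have, 48 passed the filter on low counts. AQP1 and AQP11 passed in every tissue, while AQP2 and AQP6 passed in Kid alone. The 4 comparisons share groups, so they are not independent of each other.

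Between females and males in non-breeders, the 1 pair of 48 beyond the threshold was AQP3 in Adr, on which the genes had been chosen. Over all genes and tissues 0.552% of the tests passed in that comparison, and nothing is read from the count. In breeders 1 of 48 pairs passed, AQP3 in Adr, against 1.79% of all tests. Between breeders and non-breeders 0 of 52 pairs passed in females, where 0.00301% of all tests did, and 0 of 53 pairs in males, where the share was 0% of all tests. The difference between the sexes in their change with breeding (interaction of sex and status) passed for 0 of 48 pairs and again for 0% of all tests.

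DESeq2 gave 1 pair in breeders, and 0 in both comparisons of breeders with non-breeders and in the interaction. At an unadjusted p below 0.05 edgeR gave 7 pairs between the sexes in breeders, 5 with breeding in females, 4 with breeding in males and 2 in the interaction, that is 14.6%, 9.62%, 7.55% and 4.17% of the pairs. Among all genes the corresponding shares were 16.8%, 10.6%, 4.76% and 5.73%. In non-breeders the count between the sexes was 6, with AQP3 in Adr among them.

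In Kid 8 aquaporins passed the filter (AQP1, AQP2, AQP3, AQP5, AQP6, AQP7, AQP8 and AQP11), and none was a DEG in any comparison, with DESeq2 as well as edgeR. At an unadjusted p below 0.05 by edgeR there were 1 between the sexes in non-breeders, 2 between the sexes in breeders, 2 with breeding in females, 1 with breeding in males and 2 in the interaction, each of 8. Among all Kid genes 5.94%, 10.8%, 11.5%, 3.49% and 4.48% had such a p in the same order. At the FDR threshold 0.411% of Kid genes passed between females and males in non-breeders and 0.388% in breeders. The values of the members follow by role.

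AQP2 ranged from 545 to 1982 CPM in BF (median 839 CPM), 624.6 to 2329 CPM in NF (median 827 CPM), 992 to 1753 CPM in BM (median 1387 CPM) and 635 to 1621 CPM in NM (median 993 CPM). All groups overlapped, and the highest values were 2329 CPM in NF 11, 2298 CPM in NF 06 and 1982 CPM in BF 02. The log2 fold change was -0.23 (SE 0.32) for BF against NF and 0.33 (SE 0.32) for BM against NM, and between the sexes it was -0.35 (SE 0.32) in breeders and 0.21 (SE 0.32) in non-breeders.

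AQP1 had 790 to 1566 CPM in BF (median 1014 CPM), 447 to 1670 CPM in NF (median 1200 CPM), 774 to 2571 CPM in BM (median 1782 CPM) and 419 to 1648 CPM in NM (median 1584 CPM). The groups overlapped. NM 18, at 419 CPM, lay below the other NM animals, which had at least 1258 CPM. The fold change between the sexes was -0.65 (SE 0.34) in breeders, with an FDR of 0.501.

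AQP6 had 44.2 to 78.4 CPM in BF (median 58.5 CPM) and 58.9 to 103 CPM in BM (median 94.4 CPM). It had 44.1 to 79.1 CPM in NF (median 57.4 CPM) and 54.8 to 104 CPM in NM (median 63.8 CPM). Females were the lower sex by median at either status, but the ranges overlapped, and the log2 fold changes of -0.52 (SE 0.20) in breeders and -0.27 (SE 0.20) in non-breeders did not pass (FDR 0.332 and 1).

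AQP3 in Kid was 96.4 to 286 CPM in BF (median 177 CPM) and 116 to 1054 CPM in NF (median 208 CPM), and 121 to 362 CPM in BM (median 266 CPM) and 187 to 322 CPM in NM (median 272 CPM). NF 06, at 1054 CPM, and NF 11, at 521 CPM, lay above every other animal. The log2 fold change of BF against NF was -0.94 (SE 0.40, FDR 0.419), and it lay between -1.12 and -0.34 when each of the 24 libraries was left out in turn.

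AQP7, in rodents a channel of the last part of the proximal tubule, had 11.4 to 29.9 CPM in BF (median 20.96 CPM), 1.97 to 24.1 CPM in NF (median 5.94 CPM), 6.61 to 21.7 CPM in BM (median 12.2 CPM) and 13.3 to 24.6 CPM in NM (median 17.4 CPM). BF had more than NF by a log2 fold change of 1.097 (SE 0.44, FDR 0.415), and the interaction was 1.56 (SE 0.62, FDR 0.888). Neither passed, and NF 03, at 24.1 CPM, lay within the range of BF. With each library left out in turn the change in females was 0.91 (without NF 06) to 1.77 (without NF 03), and the interaction was 1.38 to 2.23 without the same libraries. The 9 proximal tubule markers had a median sum of 14096 CPM in BF and 8578 CPM in NF, 7227 CPM in BM and 8465 CPM in NM, so they stood in the same order as AQP7 within each sex. The 6 adipocyte markers had a median sum of 51.9 CPM in BF and 35.004 CPM in NF, 29.96 CPM in BM and 32.1 CPM in NM, and the 4 of them tested had a median log2 fold change of 0.98 for BF against NF. The 7 adrenal cortex markers had a median sum of 20.5 CPM in BF and 4.01 CPM in NF, with 479 CPM in BF 01, the library highest in AQP7. The part of these tissues in AQP7 was not tested.

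AQP8, AQP5 and AQP11 were at low or moderate levels. AQP8 had 0.961 to 3.38 CPM in BF and 0.630 to 1.77 CPM in NF, and 0.518 to 2.35 CPM in BM and 1.422 to 4.19 CPM in NM, which correspond to 4 to 49 reads per library. Its log2 fold changes were 0.43 (SE 0.41) in females and -0.82 (SE 0.39) in males for breeders against non-breeders. AQP5 had 0.769 to 4.05 CPM over the 24 animals.

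AQP11 was the steadiest, with a coefficient of variation of 19.5% over the 24 animals against 72.1% for AQP3. It had 19.996 to 29.8 CPM in BF (median 25.1 CPM) and 15.3 to 27.5 CPM in BM (median 17.98 CPM). The log2 fold change between these was 0.45 (SE 0.18, FDR 0.331), and BM 25, at 27.5 CPM, lay inside the female range. In non-breeders it was 0.18 (SE 0.18).

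**Figure D2:**
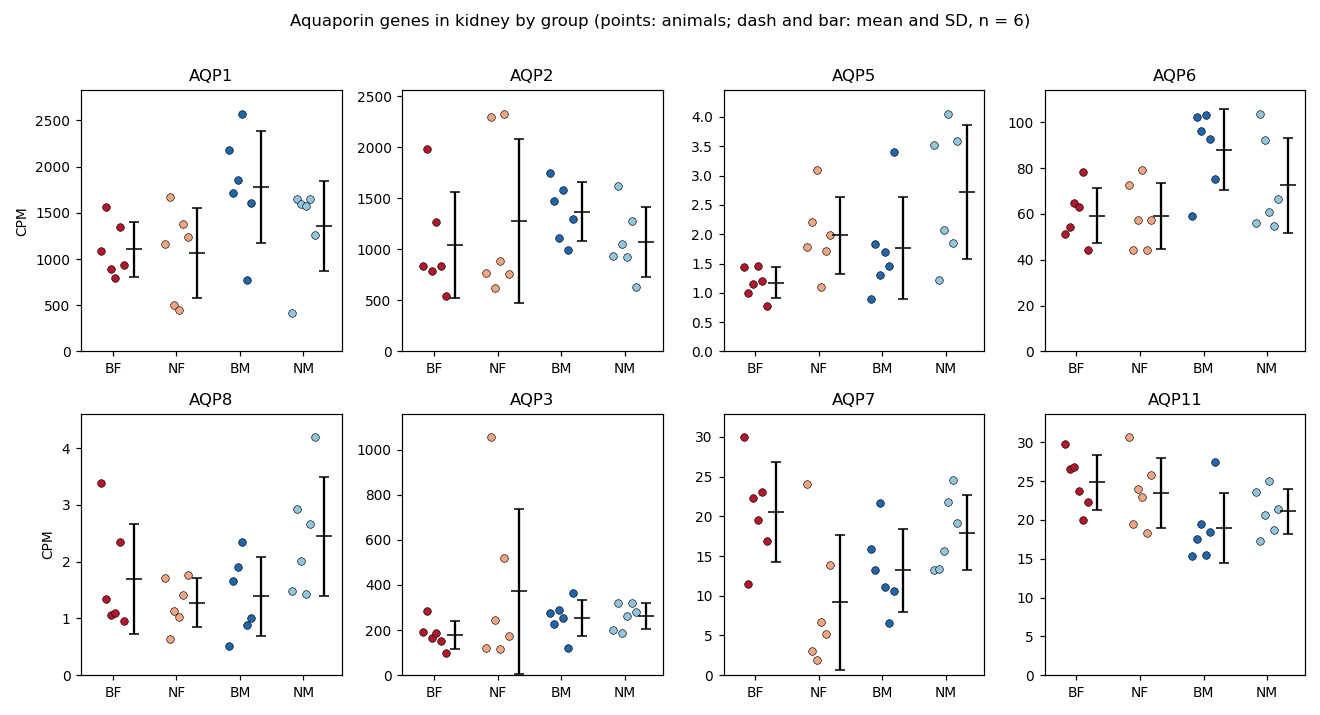
The 8 aquaporins that passed the filter in kidney, in CPM, by group (BF, NF, BM, NM); points are animals, the dash is the mean and the bar the SD over 6 animals. The groups overlap in every panel, and NF 06 and NF 11 lie apart in AQP3 (1054 and 521 CPM) and are high in AQP2.

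Genes that concentrate urine together with AQP2 gave no DEG in Kid either. Of a list of 25 genes of vasopressin signalling and urine concentration, including the vasopressin receptor gene AVPR2, the salt transporter genes SLC12A1 and KCNJ1 and the epithelial sodium channel genes, 22 were tested in Kid and 0 passed in any of the 4 comparisons or the interaction. Their median log2 fold change was -0.05 for breeders against non-breeders in females and 0.17 in males, where the medians of all genes were -0.02 in females and -0.000687 in males. At an unadjusted p below 0.05 by edgeR there were 2 of the 22 between the sexes in breeders, 1 in the interaction and 0 in the other comparisons. Of 8 genes of glycerol metabolism and lipolysis, all tested in Kid, 0 passed as well, with 1 at an unadjusted p below 0.05, between BF and NF. None of the kidney cell type lists had a DEG in Kid.

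Members could still vary together between animals of a group. After removal of the group means from log2(CPM + 1), 28 pairs of the 8 members were correlated over the 24 Kid libraries, with permutation tests of 100000 resamples. AQP2 and AQP3 had r = 0.75 (permutation p = 2e-05, FDR 0.00056) and Spearman's rho = 0.73 (permutation p = 0.00013, FDR 0.00364). Without the 2 libraries farthest from the median of AQP2, which were NF 11 and NF 06, the relation had r = 0.61 with deviations kept from the full groups. With these 2 libraries left out before the group means were taken, an alternative chosen after seeing the data, r was 0.49 and the FDR 0.196, so the call rests on them.

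Within groups the same pair had r = 0.92 in BF, 0.85 in NF, 0.50 in BM and 0.32 in NM. AQP1 correlated with AQP2 (r = 0.51, FDR 0.0744 and rho = 0.61, FDR 0.0262) and with AQP3 (r = 0.54, FDR 0.0627 and rho = 0.56, FDR 0.0471), where rank correlation passed 0.05 and Pearson's did not. Without the 2 libraries farthest from the median of AQP1 these had r = 0.57 and r = 0.51. The other 25 pairs did not pass.

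Other cell markers stood apart in the same Kid libraries. NF 06 had the lowest sum of proximal tubule markers, 2372 CPM against a median of 9151 CPM over all Kid libraries. NF 06, NF 11 and BF 02 had the highest sums of 5 urothelium markers, at 112, 84.0 and 80.5 CPM against a median of 17.7 CPM, and these were the 3 libraries highest in AQP2. Principal cell markers other than aquaporins were low in NF 06, at 2094 CPM (place 23 of 24), and in NF 11, at 2393 CPM (place 22). In BF 02 they had 2857 CPM (place 16). Over all 24 Kid libraries, on the log2 scale, their sum had r = -0.66 with AQP2, -0.52 with AQP3 and -0.84 with AQP1. The proximal tubule sum had r = -0.47 with AQP2, -0.79 with AQP3 and -0.31 with AQP1. For the intercalated cell sum r was -0.42, -0.45 and -0.78 in the same order. The urothelium sum had r = 0.64 with AQP2, 0.78 with AQP3 and 0.63 with AQP1. Group means were kept in these values, unlike in the member correlations above. The part of tissue composition in these relations was not tested.

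In Adr AQP3 was lower in females. In non-breeders, where the difference had been seen when the genes were chosen and is given without a test, NF had 13.3, 9.36, 6.00, 11.5, 9.18 and 5.88 CPM, whereas NM had 33.5, 123, 42.2, 125, 129 and 80.5 CPM. Every NF animal lay below every NM animal. The log2 fold change was -3.30 (SE 0.56), and 1.28% of all Adr genes passed as lower in females in that comparison.

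The same question in breeders uses other animals, although both comparisons come from the same fit. This test may also not be independent of the choice of genes, which named no breeding status. BF had 11.5, 10.8, 2.85, 10.998, 19.6 and 4.94 CPM, against 22.8, 14.2, 25.3, 101, 15.1 and 107 CPM in BM. BF 14, at 19.6 CPM, lay above BM 20 and BM 24, so the ranges touched. The log2 fold change was -2.26 (SE 0.54), and AQP3 passed as lower in females (FDR 0.00953 from edgeR), as did 1.01% of all Adr genes.

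This call lay at the threshold. It was lost, at an FDR of 0.0105 to 0.0325 and a log2 fold change of -2.30 to -1.86, without any 1 of 16 libraries (BF 01, 02, 05, 12 and 15; BM 22 and 25; NF 03, 06, 08, 09, 11 and 13; NM 19, 29 and 30). Over 32 alternatives the FDR lay between 0.000473 and 0.131 and the log2 fold change stayed between -2.58 and -1.86. The interaction of sex and status for AQP3 was 1.04 (SE 0.73) and did not pass, so a difference between the sex effects in breeders and non-breeders was not shown. Breeders against non-breeders gave 0.18 (SE 0.53) in females and -0.86 (SE 0.50) in males, and neither passed.

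Read length and age were unevenly spread over the Adr groups. All 5 Adr libraries with reads of 50 nt in place of 51 nt came from females. AQP3 had 4.94 to 19.6 CPM in the 7 females of 51 nt and 2.85 to 13.3 CPM in the 5 of 50 nt, against 14.2 to 129 CPM in the 12 males. The 4 males of 0.74 years had 14.2 to 123 CPM and the 8 older males 15.1 to 129 CPM. Leaving out the libraries of 50 nt gave a log2 fold change of -2.03 in breeders with an FDR of 0.131.

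AQP5 had the same direction in Adr without passing. BF had 21.3 to 64.7 CPM (median 31.2 CPM) and BM 29.8 to 144 CPM (median 49.7 CPM). NF had 25.1 to 87.8 CPM (median 47.8 CPM) and NM 42.2 to 150 CPM (median 90.2 CPM). The log2 fold changes were -0.92 (SE 0.41, FDR 0.188) in breeders and -0.97 (SE 0.41, FDR 0.155) in non-breeders, and the groups overlapped in each.

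**Figure D3:**
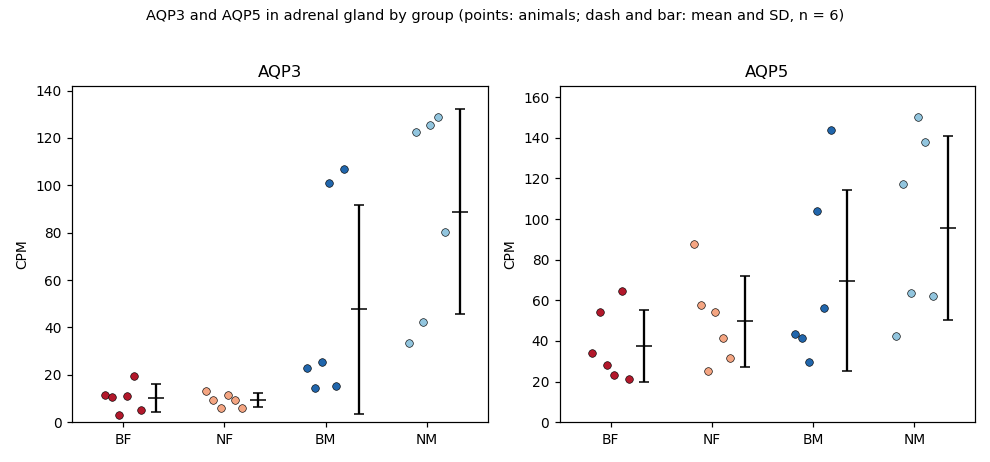
AQP3 and AQP5 in adrenal gland, in CPM, by group (BF, NF, BM, NM); points are animals, the dash is the mean and the bar the SD over 6 animals. For AQP3 females lie at or below 19.6 CPM and males at or above 14.2 CPM, with 5 of 12 males above 100 CPM.

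AQP3 and AQP5 varied together in Adr beyond the group means (r = 0.81, rho = 0.77, FDR 0.0001 each over 10 pairs, from permutation p = 1e-05, the smallest that 100000 permutations can give). These pairs were tested after the values had been seen. The correlation was 0.75 without the 2 libraries farthest from the median of AQP3 (BM 22 and BM 25), 0.85 over libraries of 51 nt, and between 0.66 and 0.94 within each group. AQP1 went the other way, with r = -0.55 against AQP3 and -0.54 against AQP5 (FDR 0.025 each, rho = -0.57 and -0.52). Without NF 03 and BM 20, the libraries farthest from the median of AQP1, these were -0.49 and -0.45. Within groups AQP1 and AQP3 had r = -0.03 in BF, -0.38 in NF, -0.90 in BM and -0.66 in NM. AQP1 and AQP5 had 0.28, -0.48, -0.80 and -0.89 in the same order. AQP1 and AQP7 had r = 0.48 (FDR 0.0485) and rho = 0.48 (FDR 0.051), with r = 0.47 in BF, -0.15 in NF, 0.80 in BM and 0.82 in NM.

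**Figure D4:**
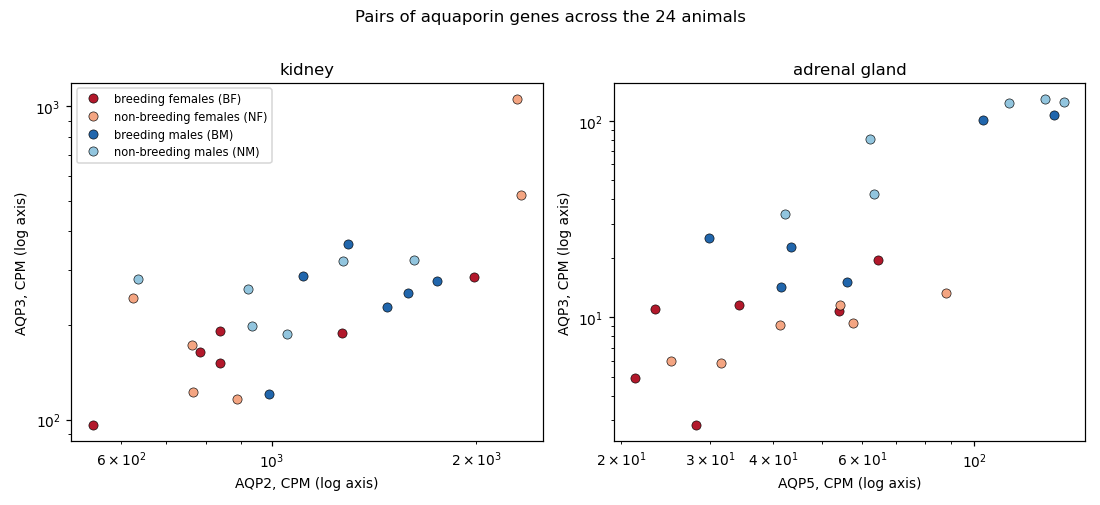
AQP3 against AQP2 in kidney (left) and against AQP5 in adrenal gland (right), both axes in CPM on log scales, with a point for each of the 24 animals coloured by group. In kidney NF 06 and NF 11 form the upper right end, and in adrenal gland the 5 males above 100 CPM of AQP3 are also the 5 highest males in AQP5.

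Of the cell type lists set beside AQP3 in Adr, that of male germ cells moved with it (r = 0.90 over the 24 libraries on the log2 scale). Group means were kept in the values of this paragraph, unlike in the member correlations. The sex difference on which AQP3 was chosen therefore enters them. Keratinocyte markers had r = -0.45 and principal cell markers r = 0.29. The 6 keratinocyte markers summed to 1.02 to 3.40 CPM, near 0, and the 7 principal cell markers to 29.96 to 86.2 CPM with overlapping groups. The 5 male germ cell markers summed to 13.02 to 27.0 CPM in BF and 27.8 to 81.0 CPM in BM, and to 9.34 to 22.2 CPM in NF and 31.9 to 69.7 CPM in NM, without overlap of the sexes. Nearly all of it was counted for TNP1, which encodes a protein of spermatid chromatin. Whether these reads came from TNP1 or from another transcript at its locus was not tested. Its count was a DEG in breeders (log2 fold change -1.28, SE 0.29, FDR 0.00714) and non-breeders (-1.66, SE 0.30, FDR 0.00126).

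The males highest in AQP3, NM 29, NM 28, NM 19, BM 25 and BM 22, were also the 5 highest in TNP1, with 68.4, 61.9, 57.9, 52.4 and 80.2 CPM. The other abundant sperm genes were near 0 in Adr, at no more than 1.92 CPM for PRM1 and 0.756 CPM for ODF1, whereas Tes had 4927, 1759 and 2668 CPM of PRM1, ODF1 and TNP1. AQP3 itself averaged 0.221 CPM in Tes. The part of the TNP1 signal in AQP3 was not tested.

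Some genes of other lists also differed between the sexes in Adr, where 3.54% of all genes passed in breeders. In breeders VSIG4, a macrophage receptor, was higher in females (1.74, SE 0.39, FDR 0.00666), as were the lipoprotein gene APOA1 (2.86, SE 0.62, FDR 0.00488) and the endothelial receptor gene KDR (0.75, SE 0.17, FDR 0.00655). PNMT, which makes adrenaline, was lower (-2.28, SE 0.50, FDR 0.00496), and so was the cilium gene TEKT1 (-1.85, SE 0.28, FDR 0.000334). TEKT1 was at a low level, with means of 0.472 CPM in BF and 1.71 CPM in BM. The fold changes are on the log2 scale. Each of these genes was the only one of its cell type list that passed in breeders. The lists had 9 macrophage, 2 hepatocyte, 5 endothelial, 5 medulla and 2 airway and gland epithelium markers tested. At an unadjusted p below 0.05 by edgeR there were 1, 2, 2, 1 and 2 in the same order, where 21.4% of all Adr genes had such a p.

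In non-breeders APOA1 (4.39, SE 0.67, FDR 0.000411) and VSIG4 (1.84, SE 0.40, FDR 0.00491) were again higher in females. Each was again the only gene of its cell type list that passed. Of the 17 genes of the urine concentration list tested in Adr, 1 passed, the aldose reductase gene AKR1B1, which was higher in NF (0.58, SE 0.12, FDR 0.00353), and in breeders 0 passed. Among all Adr genes 3.41% passed between the sexes in non-breeders and 3.54% in breeders. At an unadjusted p below 0.05 by edgeR there were 6 of the 17 in breeders, where the share of all Adr genes was 21.4%. Of the 8 glycerol metabolism genes 1 passed, the gluconeogenic gene PCK1, higher in NF (2.99, SE 0.67, FDR 0.00675), and in breeders again 0 (1 at an unadjusted p below 0.05). Neither list had a gene that passed between breeders and non-breeders, with 1 to 2 genes of each at an unadjusted p below 0.05 in either sex, where the share of all Adr genes was 5.26% in females and 5.88% in males.

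AQP11 and AQP4 had lower medians in breeders than in non-breeders in Adr, and neither passed. AQP11 had 3.53 to 5.19 CPM in BF and 4.21 to 6.79 CPM in NF, and 3.29 to 4.33 CPM in BM and 4.07 to 7.97 CPM in NM. The log2 fold changes were -0.33 (SE 0.16, FDR 0.859) in females and -0.40 (SE 0.16, FDR 0.829) in males. AQP4 had 0.0504 to 1.35 CPM in BF (median 0.401 CPM) and 0.0576 to 12.4 CPM in NF (median 1.64 CPM), and 0.121 to 2.35 CPM in BM (median 0.821 CPM) and 0.138 to 11.9 CPM in NM (median 1.21 CPM). Its log2 fold changes were -2.25 (SE 1.09, FDR 0.859) in females and -1.74 (SE 1.06, FDR 0.829) in males.

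The groups overlapped for both genes. The medulla markers moved with them, with a median sum of 665 CPM in BF and 1712 CPM in NF, and 1589 CPM in BM and 2151 CPM in NM. Their part in AQP11 and AQP4 was not tested. AQP1 and AQP7 overlapped between all groups.

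Outside Kid and Adr, 10 results of a member in a tissue had an unadjusted p below 0.05 and none passed the FDR. AQP9 in Lvr had 114 to 275 CPM in BF (median 199.8 CPM), against 162 to 364 CPM in NF (median 272 CPM), a log2 fold change of -0.57 (SE 0.23, FDR 0.189). AQP11 in Hyp had 28.7 to 38.9 CPM in BF (median 33.3 CPM), against 35.9 to 41.0 CPM in NF (median 39.4 CPM), a log2 fold change of -0.19 (SE 0.07, FDR 1). In males it had 28.8 to 41.2 CPM in BM (median 35.7 CPM), against 38.1 to 42.3 CPM in NM (median 39.7 CPM), a log2 fold change of -0.17 (SE 0.07, FDR 0.873).

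The members of brain, skin, heart and gonads gave no DEG by group. In Hrt AQP1 had a log2 fold change of -0.57 (SE 0.23, FDR 0.175) for BF against BM and 0.49 (SE 0.23, FDR 0.990) for BM against NM. AQP5 in Hrt had -1.26 (SE 0.58, FDR 0.799) for NF against NM. Each had an unadjusted p below 0.05 by edgeR, as did 1 member in Cer and 1 in Lvr between NF and NM. Of 12439 Hrt genes, 2726 had such a p between BF and BM, 512 between BM and NM and 587 between NF and NM. Between NF and NM 423 of 13487 Cer genes and 2669 of 12474 Lvr genes had it. In Skn 756 of 13505 genes had it between BF and BM. AQP4 in Hyp had medians of 1552 CPM in BF, 1512 CPM in NF, 1611 CPM in BM and 1493 CPM in NM. AQP3 in Skn had 67.7 to 451 CPM in BF, against 163 to 1809 CPM in BM, with a log2 fold change of -1.39 (SE 0.60, FDR 0.871). AQP7 in Hrt had 2.25 to 30.8 CPM in BF, against 14.1 to 61.4 CPM in BM, with a log2 fold change of -1.63 (SE 0.72, FDR 0.201). In Tes AQP8 had medians of 96.4 CPM in BM and 97.02 CPM in NM, and AQP5 1283 CPM in BM and 1249 CPM in NM.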

How the data were processed

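RNA of 11 GP tissues was sequenced from polyA libraries prepared without strand information, in single-end reads of 51 nt or, in 9 libraries, 50 nt. The authors aligned the reads with STAR (2.4.1d) to the GP genome cavPor3, allowing 6% mismatches and requiring 90% aligned length, discarded reads with several loci, and deposited raw counts per gene from HTSeq. Gene symbols had been assigned by the authors through similarity to human transcripts. Of the rows, 27 carry a date in place of a symbol. A gene and an antisense neighbour cannot be told apart in these counts.

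CPM was computed from library totals. DEGs were tested per tissue with edgeR 4.0.16 (R 4.3.3) in a fit over all groups (TMM scaling, low genes removed by filterByExpr at 10 reads per library and 15 in all, robust quasi-likelihood test, Benjamini-Hochberg FDR below 0.01 over all genes). Counts were also simulated with real means, a spread that followed the trend over genes, and changes in BF only. On these the fit for breeders in Adr recovered 92 of 100 genes changed by a fold of 4 and 68 of 100 changed by a fold of 2. Genes with a spread above that trend were not simulated, so these shares do not hold for them. Correlations used log2(CPM + 1), scipy 1.17.1 and permutation tests. DESeq2 1.42.0, other scalings and filters, read length, age and leaving out each library were tried as alternatives. No 2 libraries of a group agreed within sampling noise (chi-square of at least 4.30 per gene).

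The aquaporins, the gene lists and the tests were chosen with earlier results of these data known. Named were all 10 members, the 3 genes most like each member (1 of them is not reported here), and genes of the lists called in Kid or Adr (at most 6 per comparison). The TTR and marker levels beside members, and the Adr correlations, were added after seeing the data. The thyroid library of NM 19, which the authors had excluded too, was left out. No sequences or coordinates were used here.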

Additional observations from a re-analysis of the deposited data

Results flagged for a closer look

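Some libraries lay far from the others of their group. Over 202 combinations of a member, a tissue and a group, 26 (12.9%) had a highest or lowest library beyond Dixon's 95% limit, where chance gives about 1 in 20. In Kid these were AQP1 in NM 18 (419 CPM, others 1258 to 1648 CPM) and AQP11 in BM 25 (27.5 CPM, others 15.3 to 19.5 CPM).

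In Adr they were AQP4 in NF 13 (12.4 CPM) and NM 28 (11.9 CPM), AQP7 in NF 11 (9.01 CPM), BM 16 (17.7 CPM) and NM 30 (26.1 CPM), and AQP11 in NM 28 (7.97 CPM). In Cer they were AQP1 in BF 15 (16.4 CPM), BM 16 (12.2 CPM) and NM 28 (6.05 CPM), and AQP11 in BF 01 (58.7 CPM).

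The Ova library of NF 06 stood apart in 3 members at once, with 149.9 CPM of AQP1 (others of NF 5.37 to 15.2 CPM), 65.5 CPM of AQP4 (others 0 to 0.997 CPM) and 18.4 CPM of AQP11 (others 6.77 to 9.13 CPM). In Thy the values were AQP3 in NF 03 (172 CPM) and NM 29 (139.6 CPM), AQP7 in NM 29 (534 CPM) and AQP11 in BF 14 (6.33 CPM, below the others).

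In Hrt they were AQP4 in NM 19 (120.5 CPM, others 22.99 to 54.3 CPM), AQP5 in BM 22 (6.45 CPM) and NM 18 (14.6 CPM), and AQP7 in NF 06 (52.2 CPM, others 3.62 to 7.91 CPM). In Skn they were AQP3 in BM 22 (1809 CPM) and AQP7 in BF 02 (332 CPM), and in Pit AQP5 in NF 03 (31.3 CPM).

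The thyroid library of NM 19, which entered no comparison, had 12.6 CPM of AQP4, above the 0 to 0.657 CPM of the other thyroids. Its AQP3 was 1.66 CPM, below their 23.04 to 172 CPM.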

How the results depend on the processing

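AQP3 in Adr in non-breeders, a description, had log2 fold changes of -3.49 to -3.15 over 32 alternatives. In breeders AQP3 kept its direction but lost the call in 21 of 32. The log2 fold change was -2.26 with no filter on low counts, -2.27 with only the groups compared in the fit, -2.09 without the males of 0.74 years, -2.03 without libraries of 50 nt and -2.25 with read length as a covariate, and under each of these 5 the count of members called in breeders was 0. Leaving out single libraries gave -2.58 to -1.86, and 0 to 1 members called. The counts of members called with breeding and in the interaction stayed at 0 under every alternative run. For 8 of the 10 members the rank correlation with the most alike gene moved from Pearson's by more than its spread. AQP2 and AQP3 in Kid, correlated at 0.75, fell to 0.49 without NF 06 and NF 11. What caused these losses was not tested. In Kid the depth of NF 08 (3551108 reads) limits low members: 3 reads correspond to 0.845 CPM there. No paired analysis was possible because the groups compared within a tissue hold different animals, and tissue levels came from no test.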

Other observations

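Further aquaporin genes in the count table were close to 0. AQP10, an aquaglyceroporin of human intestine, had tissue means of at most 0.261 CPM, reached in Tes. MIP, the lens aquaporin, had 4.23 CPM in Tes and at most 0.131 CPM elsewhere.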
